A study of Mus musculus with 2 samples.

Results

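Low-sarcomere cells are cells of the embryonic mouse heart region in which RNA of the contractile apparatus was present at a low level. They were chosen by 6 sarcomere genes: Actc1 (cardiac actin), Tnnt2, Tnnc1 and Tnni1 (the T, C and slow I subunits of troponin), and Myl7 and Myl4 (atrial myosin light chains). A cell was a member when these 6 genes made up at least 0.5% and under 2% of its UMIs (unique molecular identifiers, each marking 1 captured mRNA molecule). At least 400 detected genes, at most 10% mitochondrial UMIs, under 15% haemoglobin UMIs and 0 UMIs of Epcam, Pecam1 and Cdh5 were also required. The rule found 225 members, 117 in replicate 1 and 108 in replicate 2, among 8972 cells that passed the filters on genes and mitochondrial RNA and 12497 barcodes in all. Members made up 2.90% of passing cells in replicate 1 (exact 95% binomial interval 2.40% to 3.46%) and 2.19% in replicate 2 (1.799% to 2.64%), a mean of 2.54% ± 0.501 (SD, n = 2). These intervals, and all counting intervals and floors given here, cover counting error only.

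Cells of the second heart field (SHF), a sheet of mesodermal progenitors behind the early heart, join the heart tube at its arterial and venous poles and then build sarcomeres. Progenitors are known for the transcription factors Isl1 and Osr1, and cardiac transcription factors such as Nkx2-5, Tbx5 and Mef2c are active around the time contractile genes are switched on. At the venous pole the same region also gives the Tbx18-positive sinus venosus muscle and the proepicardium, the source of the epicardium that covers the heart. A cell with a little sarcomere RNA can therefore lie next to several lineages, which is why progenitor and epicardial genes were read beside the cardiac ones.

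The cells came from 1 group, wild-type (WT) CD1 embryos at E10.0, with no treated or mutant group analysed here. Each of the 2 libraries pools microdissected posterior SHF and heart tube from about 80 embryos, dissociated with TrypLE. They were prepared on different days and are biological replicates per the labels. The assay was Drop-seq, which captures the 3' ends of a cell's mRNA on barcoded beads. All comparisons are therefore between classes of cells within the same libraries. Low-sarcomere cells were set against 222 high-sarcomere cells (71 in replicate 1 and 151 in replicate 2), which met the same conditions with at least 2% of UMIs from the 6 genes. Below 0.5% there were 785 progenitor-marked cells (356 and 429) with at least 2 UMIs over Isl1, Osr1, Foxf1 and Hoxb1 and more of these than of epicardial UMIs. A further 206 epicardial-marked cells (100 and 106) had at least 2 UMIs over Wt1, Tbx18, Upk3b, Upk1b and Lrrn4 and more of these than of progenitor UMIs. The remaining 5710 sarcomere-poor cells entered the fit as another class.

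Replicate 1 held 11958912 UMIs and replicate 2 held 14131384, with medians of 1364 and 1505 UMIs in passing cells. The libraries shared 82 cell barcodes, of which 0 belonged to low-sarcomere cells. Scrublet called 0 and 1 doublets at its automatic threshold, so it did not work as a filter, and high-scoring cells were kept and then left out as an alternative. Doublet scores strictly above the limit of the highest 5% were found in 156 of 4038 and 217 of 4934 passing cells. They were found in 8.44% of low-sarcomere cells, against 6.31% of high-sarcomere, 3.18% of progenitor-marked, 3.88% of epicardial-marked and 3.73% of the other sarcomere-poor cells. Free RNA was read from barcodes with 10 to 200 UMIs, of which the libraries held only 117 and 333. The 6 rule genes had 14 and 86 of their 8713 and 55494 UMIs (0.161% and 0.155%), so these shares are rough. Whether free RNA brought shallow cells over the 0.5% limit was not tested. The part of doublets and free RNA in the results was not tested beyond the alternatives given.

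The level of the 6 rule genes chose the cells and is a description. They made up 1.08% and 1.06% of the UMIs of low-sarcomere cells in replicates 1 and 2, against 5.62% and 5.93% in high-sarcomere cells, 0.0313% and 0.0431% in progenitor-marked cells and 0.175% and 0.143% in epicardial-marked cells. Actc1 (chromosome 2, 114047282 to 114053548, minus strand, GRCm38) had 1350 and 1457 CPM (UMIs of the gene scaled to a common total for the class) in low-sarcomere cells, against 14220 and 14384 in high-sarcomere cells. Myl7 (chromosome 11, 5896637 to 5898782, minus strand) had 3478 and 3101 CPM, against 17461 and 19792. The gap between the classes was not equal over the 6 genes. In low-sarcomere cells Tnnc1 stood at 7.39% and Actc1 at 9.81% of its CPM in high-sarcomere cells, while Tnnt2 stood at 23.3%, Myl4 at 26.4% and Tnni1 at 40.7%. The make-up of the rule-gene UMIs thus differed. Actc1 gave 12.6% and 13.8% of them in low-sarcomere cells, against 25.3% and 24.2% in high-sarcomere cells. Tnni1, the slow skeletal troponin I that the embryonic heart uses before cardiac troponin I, gave 10.3% and 12.9% in low-sarcomere cells, against 4.98% and 5.53% in high-sarcomere cells. Myl7 gave 32.3% and 29.3% in low-sarcomere cells, against 31.0% and 33.4% in high-sarcomere cells, shares that overlapped.

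Membership of a single cell rested on few molecules. Members had medians of 1228 and 1273 UMIs (466 to 24995 over both libraries) and 11 and 14 rule-gene UMIs, and 45 of 225 had 5 rule-gene UMIs or fewer. High-sarcomere cells had medians of 1921 and 1976 UMIs and 107 and 105 rule-gene UMIs. Of the members, 119 lay below 1% and 106 from 1% to under 2%. Just outside the lower limit, from 0.4% to 0.5%, there were 31 and 41 cells with medians of 3 and 6 rule-gene UMIs. Just inside it, from 0.5% to 0.6%, there were 23 and 25 members with medians of 6 and 5. At the upper limit 6 and 8 members lay from 1.8% to 2%, with medians of 28.5 and 28 rule-gene UMIs, and 4 and 6 high-sarcomere cells from 2% to 2.2%, with medians of 46.5 and 40.5. The upper limit cut through a sparse part of the range, and the lower limit through a denser one. The 20 members with over 10000 UMIs held 40.6% of all members' UMIs, so summed values were also taken without cells of that size.

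**Figure D1:**
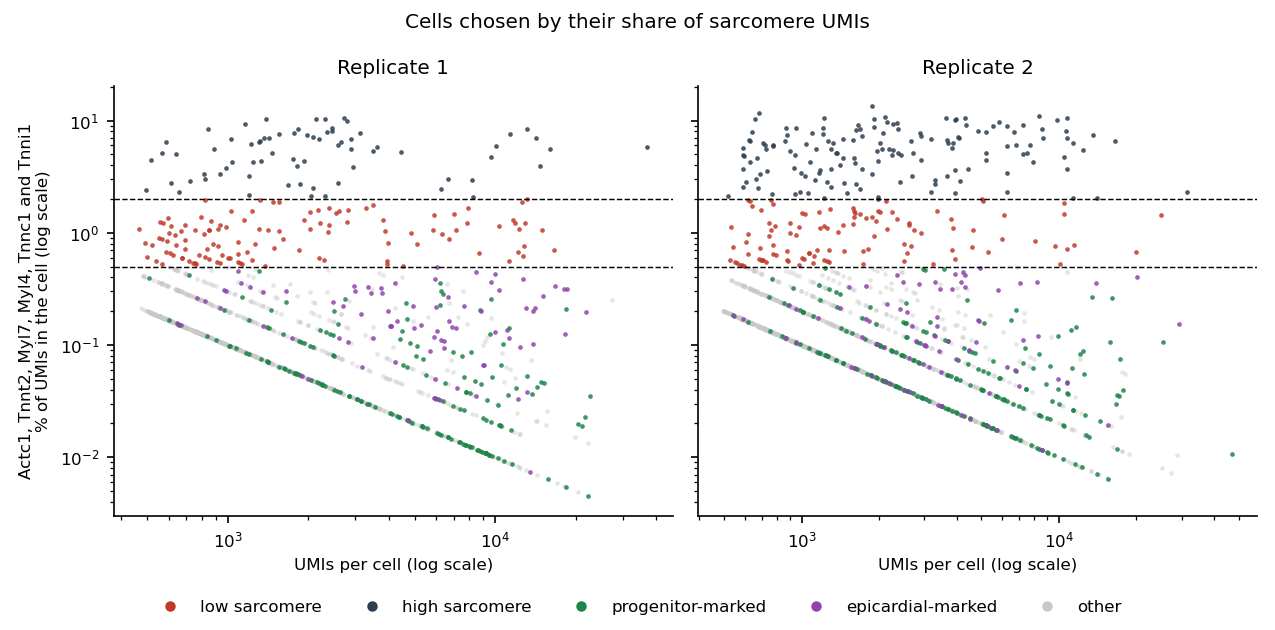
Share of UMIs from the 6 rule genes (percent, log axis) against UMIs per cell (log axis), 1 point per cell with at least 1 rule-gene UMI, in a panel per replicate, with dashed lines at the limits of 0.5% and 2%. The low-sarcomere cells lie between the lines from 466 UMIs upward, and the 20 members with over 10000 UMIs form the right edge of the band.

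For the label of early differentiating cells, all passing cells were clustered without the 6 rule genes. The largest share of members fell in a cardiomyocyte-like cluster, with raised Myh6, Myh7, Ttn, Nkx2-5 and Csrp3: 66 of 117 in replicate 1 (56.4%) and 51 of 108 in replicate 2 (47.2%). Of the high-sarcomere cells, 221 of 222 lay in that cluster. Sarcomere genes outside the rule were not left out of the clustering. The placement in that cluster thus follows in part from the choice of cells, and it is not an independent check of the label. The other members were spread over several clusters: 26 in the epicardial-like one, 12 in SHF progenitor-like ones, 12 in the endothelial-like one and 54 in unnamed ones, whose members had a median of 692.5 UMIs. A further 4 members lay in foregut endoderm-like, neural tube-like and paraxial mesoderm-like clusters. The low-sarcomere class is thus mixed, and it is called here by its rule.

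Members in different clusters carried different programmes beside their sarcomere RNA, which is a description since the clusters were made from these genes. The 117 members in the cardiomyocyte-like cluster had 374 CPM of Myh6, 278 of Ttn and 132 of Nkx2-5, and also 154 of Tbx18 and 1405 of Ptn. The 26 in the epicardial-like cluster had 0 UMIs of Myh6, Ttn and Nkx2-5, 548 CPM of the mesothelial gene Upk3b, 163 of Wt1 and 327 of Tbx18. In these cells Myl7 gave 53.9% of the rule-gene UMIs, against 28.9% for members in the cardiomyocyte-like cluster. Epicardial-marked cells below the limit had a like make-up, with 45.7% and 44.1% from Myl7 in replicates 1 and 2. The 12 members in SHF progenitor-like clusters, 2 from replicate 1 and 10 from replicate 2, had 824 CPM of Osr1, 284 of Isl1, 341 of Nkx2-5 and 511 of Csrp3, with 0 UMIs of Tbx18 and Upk3b. In sums over cells, progenitor and cardiac genes were thus both present in that small group. Epicardial genes were present with Myl7 but no myosin heavy chain Myh6 in the epicardial-like one. Whether the same single cells held both progenitor and cardiac genes was not tested.

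**Figure D2:**
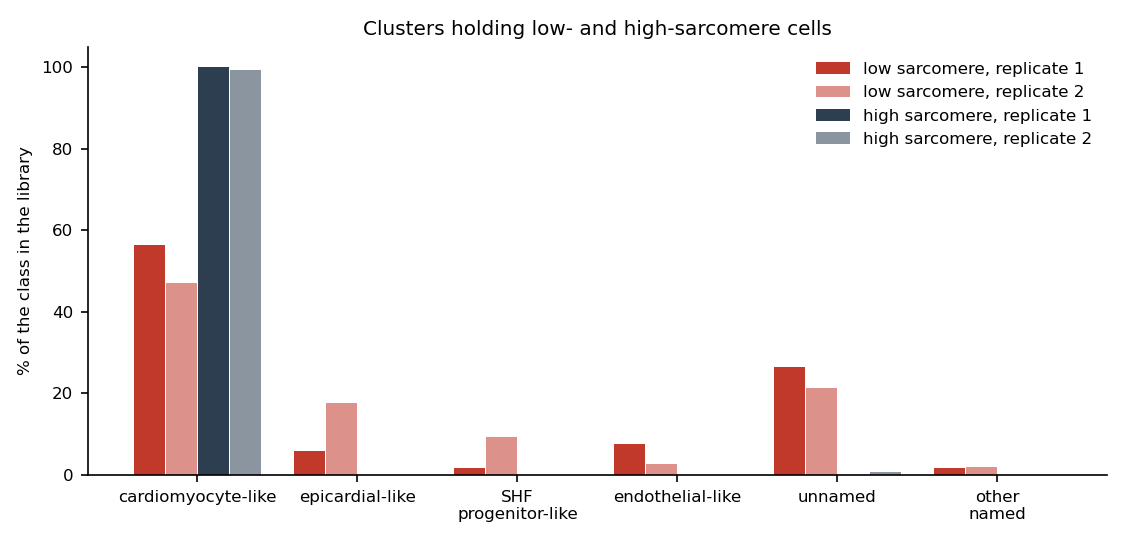
Percent of low-sarcomere and of high-sarcomere cells in each named kind of cluster, 1 bar per class and replicate. Cardiomyocyte-like clusters hold 56.4% and 47.2% of low-sarcomere cells and nearly all high-sarcomere cells. Unnamed, epicardial-like, SHF progenitor-like and endothelial-like clusters hold most of the other low-sarcomere cells.

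By the marker UMIs themselves, 21 of the 225 members were progenitor-marked, 33 were epicardial-marked, 4 had equal counts of both and 167 (74.2%) had fewer marker UMIs than needed. That last group had a median of 985 UMIs, against 7155 in the progenitor-marked and 5038 in the epicardial-marked members. Whether unmarked members lack the markers or were too shallow to show them cannot be told apart here. Progenitor-marked members had 335 CPM of Nkx2-5 and 463 of Osr1. Epicardial-marked members had 8.77 CPM of Nkx2-5, 342 of Tbx18 and 307 of Upk3b. Osr1 had 0 UMIs and Isl1 57.0 CPM in these 33 cells. The levels of Osr1, Isl1, Tbx18 and Upk3b are part of how the members were split here, and are a description.

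Markers of other cell types were present. The 8 erythroid markers had the highest sum, 1811 and 1429 CPM in low-sarcomere cells, against 1535 and 1205 in high-sarcomere cells. The 7 paraxial mesoderm markers had 17 and 4 UMIs (46.4 and 14.1 CPM) in low-sarcomere cells, against 1 and 1 UMIs (3.87 and 1.92 CPM) in high-sarcomere cells, with Meox2, Pax1 and Myf5 at 0 throughout. Summed CPM in replicates 1 and 2 was 167 and 116 for the 10 endothelial markers in low-sarcomere cells, against 58.0 and 93.9 in high-sarcomere cells, with Tie1 at 0 in all 4 sums, as Pecam1 and Cdh5 are by the rule. The 6 neuron markers summed to 57.4 and 119.9 CPM in low-sarcomere cells, against 15.5 and 38.3 in high-sarcomere cells, with Nhlh1 at 0 throughout. Neural crest or glia markers (6) summed to 35.5 and 28.2 CPM in low-sarcomere cells, against 11.6 and 17.2 in high-sarcomere cells, with Foxd3 at 0. Foregut endoderm markers (8) summed to 169 and 212 CPM, against 151 and 222 in high-sarcomere cells, with Epcam, Shh and Nkx2-1 at 0. At least 2 UMIs of markers of other types were found in 17.8% of low-sarcomere cells, 11.3% of high-sarcomere, 24.7% of progenitor-marked and 32.5% of epicardial-marked cells. The free RNA barcodes held 1 and 9 UMIs of the endothelial markers (115 and 162 CPM) and 1 and 10 of the neuron markers (115 and 180 CPM). Erythroid markers had 35464 and 22507 CPM in free RNA. The part of such RNA in the comparisons was not tested.

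Low-sarcomere cells were then compared with high-sarcomere cells gene by gene, on UMI counts summed per class and library. Low-sarcomere cells had less RNA of contraction, energy supply and the cardiac factor Nkx2-5, and more of the growth factor Ptn, the Wnt inhibitor Sfrp1 and 5 of 12 epicardial genes, among them Tbx18 and Tcf21. The direction of the contraction and muscle energy genes follows at least in part from the choice of cells. Of 8675 genes tested, 279 were higher (3.22%) and 537 lower (6.19%) in low-sarcomere cells at an adjusted p under 0.05 (edgeR's quasi-likelihood F test with Benjamini-Hochberg adjustment). Of these, 165 were higher and 339 lower by over 2-fold. Library sizes without TMM scaling factors moved the median log2 difference of all genes to 0.20, against 0.01 with them, and gave 621 higher and 391 lower, so the split between directions depends on the scaling. CPM values and percents of CPM carry no TMM factors, while the log2 differences do. Ratios of CPM over high-sarcomere cells thus tend to lie somewhat above the tested differences. Both classes come from the same libraries, so these p-values describe a difference between classes of cells over 2 libraries and not between groups of animals.

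Sarcomere genes outside the rule were all lower in low-sarcomere cells: 25 of 25 tested, with a median log2 difference of -3.28 (-3.19 with genes at 0 UMIs set at their bound), against 0.01 over all genes. Their direction is fixed by the choice of cells, since they are expressed with the 6 genes of the rule, and it is not a separate finding. How far each was below the high-sarcomere level was not used by the rule. The median gene stood at 12.3% of its CPM in high-sarcomere cells. Tcap, which ties titin to the Z-disc, had 0 UMIs in low-sarcomere cells and was at least 8.11-fold lower (floor of 3 counts per library). Myl3, the ventricular essential light chain, had 19.1 and 60.0 CPM in low-sarcomere cells, against 2603 and 2012 in high-sarcomere cells (log2 difference -6.15 ± 0.20 (SE), edgeR adjusted p = 3.0e-21, with -7.28 in replicate 1 and -5.25 in replicate 2 alone). Tnni3, cardiac troponin I, had 41.0 and 42.3 CPM, against 1477 and 943 in high-sarcomere cells. Myl3 and Tnni3 stood at under 5% of the high-sarcomere level, as did Actn2 and Myl2, while for Tcap only the bound can be given.

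Other sarcomere genes stood closer to the high-sarcomere level. Nexn (nexilin) stood at 33.8%, Tpm1 (tropomyosin) at 32.9%, Mybpc3 (myosin-binding protein C) at 27.0% and Ttn (titin, the molecular spring of the sarcomere) at 24.0% of it. Ttn had 227 and 208 CPM in low-sarcomere cells, against 1238 and 577 in high-sarcomere cells. Myh6, the atrial myosin heavy chain, had 309 and 250.5 CPM, against 5086 and 1978 in high-sarcomere cells (log2 difference -3.81 ± 0.15, edgeR adjusted p = 1.8e-19). With replicate 2 alone its log2 difference was -3.17. Its level in high-sarcomere cells was 2 to 3 times as high in replicate 1 as in replicate 2, while low-sarcomere cells were alike in both. Csrp3, a muscle LIM protein of the Z-disc, had 355 and 239.9 CPM in low-sarcomere cells, against 1543 and 1757 in high-sarcomere cells.

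Set against the rule genes rather than all RNA, the sarcomere genes fell into different orders. Per 100 rule-gene UMIs, low-sarcomere cells of both libraries together held 0.346 UMIs of Myl3, against 3.79 in high-sarcomere cells. Nppa, the atrial natriuretic peptide, had 0.0721 in low-sarcomere cells, against 1.16 in high-sarcomere cells, and Tnni3 had 0.389, against 1.92. Tpm1 had 30.5 in low-sarcomere cells, against 16.1 in high-sarcomere cells, with 33.2 and 26.9 in replicates 1 and 2, against 19.2 and 14.7. Ttn differed between the replicates, with 2.11 and 1.97 in low-sarcomere cells, against 2.201 and 0.972 in high-sarcomere cells. Csrp3 had 2.85 in low-sarcomere cells, against 2.89 in high-sarcomere cells. The ratio to the rule genes was thus not alike over the list, which is a description with no test. Tpm1 is expressed outside muscle as well, with 734 and 854 CPM in progenitor-marked cells, and the ratio does not separate that part.

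**Figure D3:**
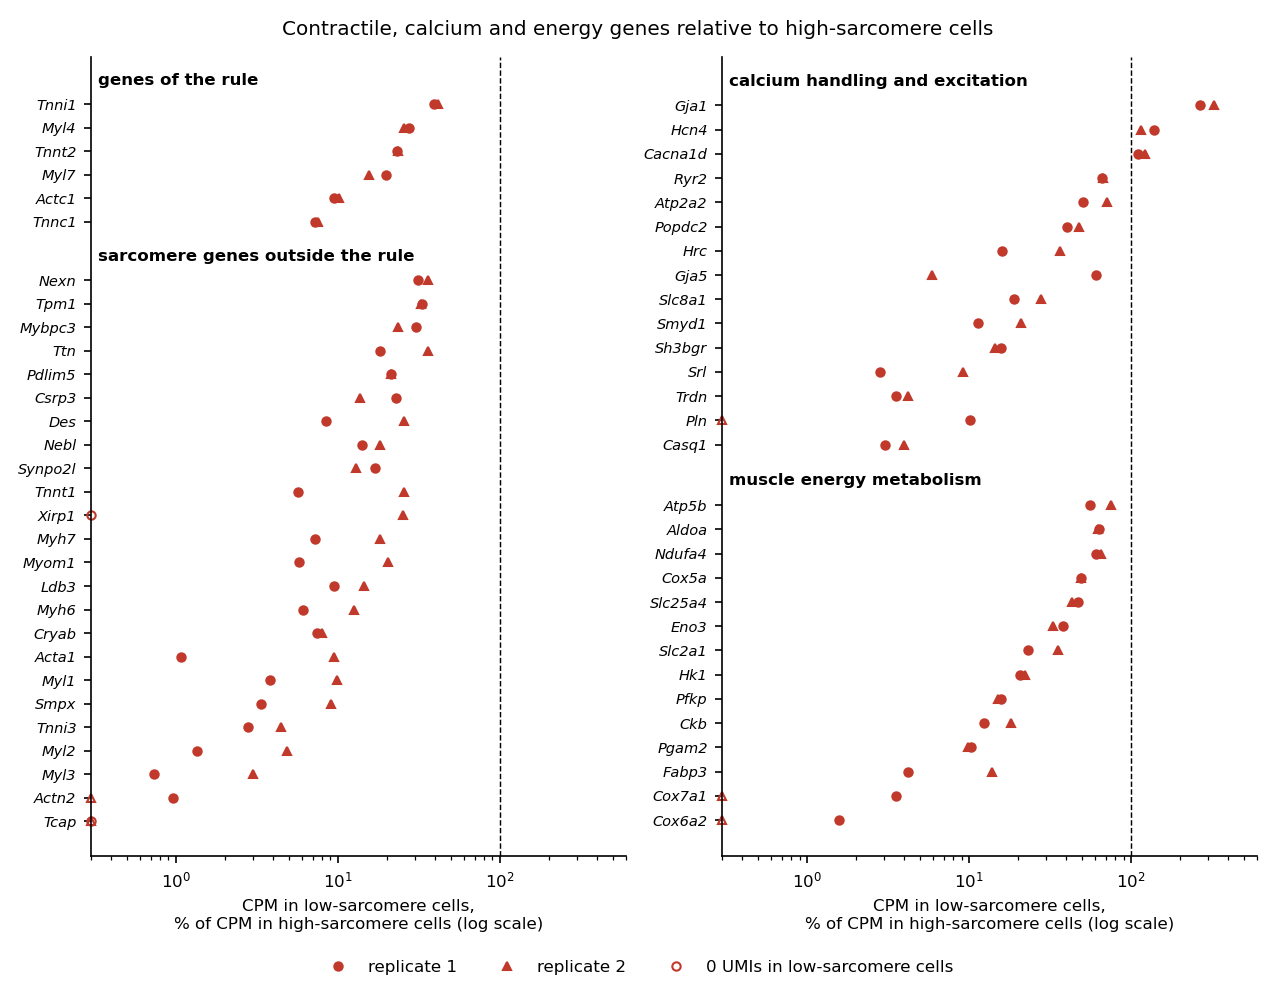
CPM in low-sarcomere cells as a percent of CPM in high-sarcomere cells (log axis), per gene and replicate, for the rule genes, other sarcomere genes, calcium handling genes and muscle energy genes, with a dashed line at 100% and open symbols at the left edge for 0 UMIs in low-sarcomere cells. Sarcomere genes run from 0 UMIs (Tcap) to 33.8% (Nexn), energy genes from 0.974% (Cox6a2) to 65.0% (Atp5b), and of the calcium list Gja1, Hcn4 and Cacna1d lie above 100%.

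Muscle energy genes were lower in low-sarcomere cells in 14 of 14 tested (median log2 difference -2.13, against 0.01 over all genes). For muscle genes of this list and of the calcium list, the lower direction follows in part from the choice of cells. Cox6a2 and Cox7a1, the muscle forms of cytochrome oxidase subunits, were the farthest below, and Cox6a2 had 2 UMIs in replicate 1 and 0 in replicate 2, against 348 and 213 CPM in high-sarcomere cells (ratio of high- over low-sarcomere 83.6, exact interval 22.9 to 695). Pgam2, the muscle phosphoglycerate mutase, had 84.7 and 91.7 CPM in low-sarcomere cells, against 824 and 929 in high-sarcomere cells (log2 difference -3.50 ± 0.18, edgeR adjusted p = 1.2e-16). Genes with a role in all cells stood closer, with Slc25a4, the mitochondrial ADP/ATP carrier, at 1891 and 1905 CPM, against 4014 and 4396 in high-sarcomere cells.

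Calcium handling and excitation genes were lower in 10 and higher in 1 of 15 tested (median log2 difference -2.26). The sarcoplasmic calcium store protein Casq1 had 8.20 and 14.1 CPM in low-sarcomere cells, against 271 and 356 in high-sarcomere cells, and Hrc, a calcium-binding protein of the same store, had 60.1 and 84.7, against 375 and 232 (log2 differences -5.01 and -2.26, with -1.64 for Hrc in replicate 2 alone). Smyd1, a muscle methyltransferase that helps myosin assemble, had 43.7 and 88.2 CPM, against 387 and 422 in high-sarcomere cells. The calcium pump Atp2a2 was much less far below, at 349.7 and 293 CPM, against 692 and 414 in high-sarcomere cells (log2 difference -0.95 ± 0.15, edgeR adjusted p = 1.2e-05). Hcn4, the pacemaker channel, had 123 and 95.3 CPM in low-sarcomere cells, against 88.9 and 82.4 in high-sarcomere cells, and did not pass the test (log2 difference 0.07, edgeR adjusted p = 0.94). The gap junction gene Gja1 was the higher one, with 51.9 and 56.4 CPM, against 19.3 and 17.2 in high-sarcomere cells (log2 difference 1.44, edgeR adjusted p = 0.024). It lost its call without members of other clusters and in several other alternatives.

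Smooth muscle genes, several of which the early heart uses before its own isoforms, were lower in 5 of 6 tested. Their direction follows in part from the choice of cells by sarcomere RNA. Acta2, smooth muscle actin, had 1238 and 1446 CPM in low-sarcomere cells, against 5194 and 6677 in high-sarcomere cells (log2 difference -2.32 ± 0.15, edgeR adjusted p = 6.2e-14). Per 100 rule-gene UMIs it had 12.4 in low-sarcomere cells, against 10.6 in high-sarcomere cells. Cnn1 (calponin) had 194 and 102 CPM, against 576 and 563 in high-sarcomere cells. The skeletal muscle regulators and markers Myf5, Myod1, Myog, Mymk, Cdh15 and Chrna1 had 0 UMIs in low-sarcomere cells of both replicates.

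Outside the lists, 12 genes were named for the largest differences below high-sarcomere cells. Fsd2 had 0 UMIs in low-sarcomere cells, against 224 and 130 CPM in high-sarcomere cells, at least 18.9-fold lower. Lmod3, a leiomodin that nucleates thin filaments, had 0 UMIs, against 38.7 and 78.6 CPM in high-sarcomere cells, at least 6.24-fold lower. Both kept their direction with DESeq2 and missed its threshold (adjusted p = 0.37 and 0.51). Hspb2, a small heat shock protein of muscle, had 8.20 and 7.06 CPM, against 391 and 412 in high-sarcomere cells. From the inflow list, the natriuretic peptide gene Nppa had 5.46 and 10.6 CPM, against 673 and 680.3 in high-sarcomere cells (log2 difference -6.62 ± 0.33, edgeR adjusted p = 7.9e-17). Nppb had 0 and 1 UMIs, against 100.6 and 132 CPM (ratio of high- over low-sarcomere 79.1, exact interval 13.9 to 3155). The others by the same rule were Itgb1bp2, Hspb3, Ap3b2, Trim63, Mybphl, Mylpf, Pygm and Pvalb, each at no more than 14.1 CPM in low-sarcomere cells of either replicate.

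Cardiac transcription factors were split. Of 18 tested, 7 were lower and 1 was higher in low-sarcomere cells, and 10 did not pass the test (median log2 difference -0.52). Nkx2-5 (chromosome 17, 26838664 to 26845009, minus strand), a homeobox factor of the heart fields and of heart muscle, had 145 and 91.7 CPM in low-sarcomere cells, against 522 and 638 in high-sarcomere cells (log2 difference -2.41 ± 0.22, edgeR adjusted p = 4.1e-10). At least 1 UMI of Nkx2-5 was seen in 18.8% and 12.0% of low-sarcomere cells, against 53.5% and 59.6% of high-sarcomere cells and 3.00% and 0.943% of epicardial-marked cells, which should lack it and were deeper (medians of 4942.5 and 3006.5 UMIs). With every cell thinned to 800 UMIs, leaving 85 and 78 low-sarcomere and 63 and 127 high-sarcomere cells, the shares were 11.8% and 8.97% of low-sarcomere cells, against 33.3% and 32.3% of high-sarcomere cells and 1.05% and 0% of the 95 and 102 epicardial-marked cells kept (0 of 102 allows up to 2.94%). Nkx2-5 was thus lower in both replicates, as was Hopx, a homeodomain-only protein (35.5 and 63.5 CPM, against 383 and 161 in high-sarcomere cells). Hopx had a log2 difference of -2.52 over both libraries, -3.62 in replicate 1 and -1.53 in replicate 2.

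Other cardiac factors were close between the classes. Mef2c had 361 and 272 CPM in low-sarcomere cells, against 379 and 412 in high-sarcomere cells (log2 difference -0.52, edgeR adjusted p = 0.039). Gata4 had 191 and 205 CPM, against 174 and 115, and Tbx5 had 175 and 106, against 162 and 171 in high-sarcomere cells; neither passed the test (edgeR adjusted p = 0.56 and 0.18). Gata5, a GATA factor of early heart and endocardium, was higher, with 115 and 91.7 CPM, against 30.9 and 53.7 in high-sarcomere cells (log2 difference 1.06, edgeR adjusted p = 0.038, and 1.70 in replicate 1 alone). Tbx20 (104 and 91.7 CPM, against 170.2 and 136 in high-sarcomere cells) and Mef2a (112 and 60.0, against 159 and 123) were lower, and both lost their calls in several alternatives. Without TMM factors 2 of the 18 were higher and 2 were lower, so the lower calls of modest size rest on the scaling while Nkx2-5 and Hopx kept theirs.

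Genes of the inflow tract and sinus venosus also went both ways, with 2 of 12 higher and 6 lower in low-sarcomere cells (median log2 difference -0.66). Tbx18 and Sfrp5, which mark the sinus horns and their progenitors, were higher. Sfrp5, a secreted Wnt inhibitor, had 311 and 226 CPM in low-sarcomere cells, against 34.8 and 125 in high-sarcomere cells (log2 difference 1.39 ± 0.28, edgeR adjusted p = 7.4e-04), with 2.97 in replicate 1 and 0.67 in replicate 2 alone. Shox2, a homeobox factor of the sinus node region, had 459 and 342 CPM, against 209 and 241 in high-sarcomere cells, and did not pass the test (log2 difference 0.55, edgeR adjusted p = 0.078). The 6 lower genes were Tbx3, Vsnl1, Stard10, Angpt1, Cav1 and Nppa. Nppa and Stard10 are genes of working atrial muscle, but the lower genes were not only of that kind. Stard10 had 24.6 and 10.6 CPM in low-sarcomere cells, against 135 and 115 in high-sarcomere cells (log2 difference -2.90, and -3.62 in replicate 2 alone).

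Ptn (chromosome 6, 36714929 to 36810220, minus strand) encodes pleiotrophin, a secreted heparin-binding growth factor of embryonic mesenchyme and epithelia. It had 1265 and 1552 CPM in low-sarcomere cells, against 104 and 169 in high-sarcomere cells, a difference larger than any spread between replicates (log2 difference 3.04 ± 0.18, edgeR adjusted p = 1.6e-14, or 8.24-fold). At least 1 UMI of Ptn was seen in 50.4% and 56.5% of low-sarcomere cells, against 18.3% and 17.9% of high-sarcomere cells. Thinned to 800 UMIs the shares were 35.3% of low-sarcomere cells in replicate 1 and 39 of 78 in replicate 2, against 7.94% and 8.66% of high-sarcomere cells. Ptn is not particular to low-sarcomere cells: progenitor-marked cells had 934 and 831 CPM, and epicardial-marked cells 2078 and 1554. Its relative midkine (Mdk) was higher as well, with 3158 and 2808 CPM in low-sarcomere cells, against 1427 and 1752 in high-sarcomere cells (log2 difference 0.70). Of the 12 growth and imprinted genes tested, 5 were higher and 0 lower: Ptn, Mdk, H19, Peg3 and Mest. Mest had 806 and 1337 CPM, against 541 and 387 in high-sarcomere cells, and its log2 difference of 1.07 was 0.38 in replicate 1 alone.

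Sfrp1 (chromosome 8, 23411502 to 23449632, plus strand), a secreted antagonist that binds Wnt ligands, had 997 and 808 CPM in low-sarcomere cells, against 352 and 266 in high-sarcomere cells (log2 difference 1.32 ± 0.14, edgeR adjusted p = 8.1e-09). It was also higher than in progenitor-marked cells, which had 447 and 273 CPM (log2 difference 1.36 ± 0.11, edgeR adjusted p = 3.1e-11). Epicardial-marked cells had 842 and 456 CPM, and that difference passed the test in the same direction (log2 difference 0.49, edgeR adjusted p = 0.0088) but was lost in 6 alternatives, among them without cells over 10000 UMIs (0.26, edgeR adjusted p = 0.36). Of 13 Wnt ligands and modulators tested, 3 were higher than in high-sarcomere cells (Sfrp1, Sfrp5 and Dkk1, all secreted inhibitors) and 2 lower. The lower pair was Dkk3, with 5.46 and 7.06 CPM in low-sarcomere cells, against 85.1 and 28.7 in high-sarcomere cells, and the Wnt agonist Rspo3, with 2.73 and 14.1, against 19.3 and 90.1. For Dkk3 the log2 difference of -3.24 was -4.14 in replicate 1 and -2.20 in replicate 2.

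Further signalling genes were higher in low-sarcomere than in high-sarcomere cells. Tgfb2 (chromosome 1, 186622792 to 186705989, minus strand), a TGF-beta ligand of cushion-forming myocardium and epicardium, had 344 and 335 CPM, against 135 and 149 in high-sarcomere cells (log2 difference 0.97 ± 0.20, edgeR adjusted p = 8.5e-04). Without cells carrying markers of other types its log2 difference was 0.68 (edgeR adjusted p = 0.074). Id3, an inhibitor of basic helix-loop-helix factors that BMP signals induce, had 751 and 963 CPM, against 159 and 356 (log2 difference 1.47 ± 0.16, edgeR adjusted p = 3.4e-08). Bmp7 was lower, with 32.8 and 31.8 CPM, against 81.2 and 109 in high-sarcomere cells. Ednrb, an endothelin receptor, had 137 and 145 CPM, against 7.73 and 26.8 (log2 difference 2.50 ± 0.40, edgeR adjusted p = 2.1e-05, and 3.94 in replicate 1 alone). Kitl, the ligand of the Kit receptor, had 369 and 201 CPM, against 38.7 and 49.8 (log2 difference 2.34, and 3.06 in replicate 1 alone). The adhesion proteins Flrt2 and Flrt3 had 148 and 152 CPM and 336 and 233 CPM, against 15.5 and 30.7 and 46.4 and 59.4 in high-sarcomere cells. Flrt2 had a log2 difference of 2.25 over both libraries and 3.06 in replicate 1 alone. For each of these genes both low-sarcomere libraries were above both high-sarcomere libraries, and Bmp7 was below in both.

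Some genes were higher in low-sarcomere cells than in high-sarcomere and in progenitor-marked cells. Corin, a protease that processes natriuretic peptides, had 76.5 and 52.9 CPM in low-sarcomere cells, against 11.6 and 13.4 in high-sarcomere, 3.37 and 3.43 in progenitor-marked and 11.5 and 16.6 in epicardial-marked cells. Its log2 differences were 2.14, 4.26 and 2.28 (edgeR adjusted p = 0.0054, 3.3e-08 and 0.0022), the last being 1.69 in replicate 2 alone. Ednrb was higher than in all 3 classes too, with log2 differences of 2.62 over progenitor-marked and 1.34 over epicardial-marked cells. Rarres2, the secreted chemerin, had 60.1 and 119.9 CPM, against 27.1 and 21.1 in high-sarcomere, 4.50 and 6.29 in progenitor-marked and 34.4 and 23.6 in epicardial-marked cells. Over high-sarcomere cells its log2 difference of 1.78 was 0.96 in replicate 1 alone. The other 9 of the 12 genes named by this rule were Tbx18, Upk3b, Lrrn4, Mgarp, Asb4, Itga4, Stk26, Flrt2 and Flrt3. Of these, Stk26 was lower than in epicardial-marked cells (log2 difference -1.01, edgeR adjusted p = 0.025, and -1.68 and -0.15 in replicates 1 and 2 alone), and Mgarp, Asb4, Itga4, Flrt2 and Flrt3 did not pass that test. Asb4, for example, had 224 and 261 CPM in low-sarcomere cells, against 280.2 and 215 in epicardial-marked cells.

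Epicardial and mesothelial genes were higher than in high-sarcomere cells in 5 of 12 tested, and 0 were lower (median log2 difference 1.91, against 0.01 over all genes). The 5 were Tbx18, Tcf21, Upk3b, Lrrn4 and Mab21l2. Tbx18 (chromosome 9, 87702800 to 87731260, minus strand), a T-box factor of proepicardium and sinus venosus, had 131 and 201 CPM in low-sarcomere cells, against 7.73 and 21.1 in high-sarcomere cells (log2 difference 3.11 ± 0.39, edgeR adjusted p = 4.3e-07, and 3.88 in replicate 1 alone). Upk3b (chromosome 5, 136038496 to 136046487, plus strand), a uroplakin of mesothelium, had 109 and 145 CPM, against 11.6 and 46.0 (log2 difference 1.73 ± 0.33, edgeR adjusted p = 3.1e-04, and 3.04 in replicate 1 alone). Tcf21, a factor of epicardium and cardiac fibroblast precursors that pharyngeal mesoderm also uses, had 210.4 and 258 CPM, against 11.6 and 65.2 (log2 difference 2.19 ± 0.30, edgeR adjusted p = 1.6e-06, and 3.98 in replicate 1 alone). All low-sarcomere sums of these 3 genes were above all high-sarcomere sums. Wt1, the defining factor of epicardium, had 16.4 and 60.0 CPM in low-sarcomere cells, against 0 and 28.7 in high-sarcomere cells, and did not pass the test (edgeR adjusted p = 0.45).

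Where these epicardial UMIs lay among the members differed between genes. With members limited to the cardiomyocyte-like cluster, Tbx18 and Tcf21 kept their calls, while Upk3b had a log2 difference of 0.83 (edgeR adjusted p = 0.28) and Lrrn4 of 0.73 (adjusted p = 0.75), and 3 of 12 genes were higher. Tbx18 was seen in 22.2% and 25.9% of low-sarcomere cells, against 2.82% and 2.65% of high-sarcomere, 2.81% and 1.17% of progenitor-marked and 51.0% and 34.9% of epicardial-marked cells. After thinning the shares were 15.3% and 17.9% of low-sarcomere cells, against 1.59% and 0.787% of high-sarcomere, 0.595% and 0.494% of progenitor-marked and 15.8% and 11.8% of epicardial-marked cells. Upk3b was seen in 10.3% and 13.9% of low-sarcomere cells (2.35% and 6.41% thinned), against 71.0% and 63.2% of epicardial-marked cells (34.7% and 35.3% thinned). Tbx18 was thus as frequent in low-sarcomere as in epicardial-marked cells at equal depth, and Upk3b was not; that epicardial-marked cells hold these genes is part of their choice. Without cells over 10000 UMIs the count was 5 of the 9 genes then tested, and Lrrn4 missed the threshold with DESeq2 (adjusted p = 0.23). Mab21l2 had 71.0 and 49.4 CPM in low-sarcomere cells, against 15.5 and 24.9 in high-sarcomere cells (log2 difference 1.38, edgeR adjusted p = 0.043, with 2.001 in replicate 1 and 0.80 in replicate 2 alone), and lost its call in 7 alternatives.

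Progenitor genes of the SHF were higher than in high-sarcomere cells in 3 of 20 tested, and 0 were lower (median log2 difference 0.67, against 0.01 over all genes). The 3 were Foxp1, Osr1 and Hoxb1. Osr1 (chromosome 12, 9570116 to 9581500, plus strand), a zinc finger factor of the posterior SHF, had 123 and 123 CPM in low-sarcomere cells, against 34.8 and 59.4 in high-sarcomere cells and 318 and 306 in progenitor-marked cells, which were chosen for it. Its log2 difference of 1.05 ± 0.31 over high-sarcomere cells (edgeR adjusted p = 0.024) did not hold without cells over 10000 UMIs (0.58, adjusted p = 0.46) or with members limited to the cardiomyocyte-like cluster (0.69, adjusted p = 0.36). Hoxb1, an anterior Hox gene of the posterior field, had 8 and 6 UMIs in low-sarcomere cells, against 1 and 0 in high-sarcomere cells (ratio 16.8, exact interval 2.56 to 711, edgeR adjusted p = 0.014), and its call was lost in 5 alternatives. Foxp1, a forkhead repressor, had 210.4 and 318 CPM, against 104 and 136 in high-sarcomere cells (log2 difference 0.86 ± 0.21, edgeR adjusted p = 0.0065). Its call was lost with cells thinned to 800 UMIs (0.80, edgeR adjusted p = 0.30), with members from 1% to under 2% (0.66, adjusted p = 0.12) and with no replicate block (adjusted p = 0.087).

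Isl1 (chromosome 13, 116298281 to 116309689, minus strand), the classical SHF factor, had 123 and 119.9 CPM in low-sarcomere cells, against 54.1 and 103 in high-sarcomere and 237 and 229 in progenitor-marked cells. It did not pass the test against high-sarcomere cells (log2 difference 0.34 ± 0.27, edgeR adjusted p = 0.52). Isl1 is also expressed in sinus node precursors. Isl1 was seen in 22.2% and 23.1% of low-sarcomere cells, against 11.3% and 17.2% of high-sarcomere cells, and after thinning in 11.8% and 11.5%, against 7.94% and 8.66%. Osr1 was seen in 13.7% and 9.26% of low-sarcomere cells, against 7.04% and 13.2% of high-sarcomere, 60.1% and 51.7% of progenitor-marked and 4 of 100 and 3 of 106 epicardial-marked cells. Thinned, Osr1 stood at 8.24% and 10.3% of low-sarcomere cells, against 0% and 7.09% of high-sarcomere, 33.04% and 27.7% of progenitor-marked and 1.05% and 0% of epicardial-marked cells. The 0 of 63 high-sarcomere cells in replicate 1 allow a share of up to 4.76%, and the 0 of 102 epicardial-marked cells up to 2.94%. The shares of Isl1 and Osr1 thus gave no clear gap between low- and high-sarcomere cells at equal depth. Aldh1a2, which makes retinoic acid in the posterior field, had 16.4 and 28.2 CPM, against 7.73 and 3.83 in high-sarcomere cells (edgeR adjusted p = 0.18) and 115 and 128 in progenitor-marked cells.

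**Figure D4:**
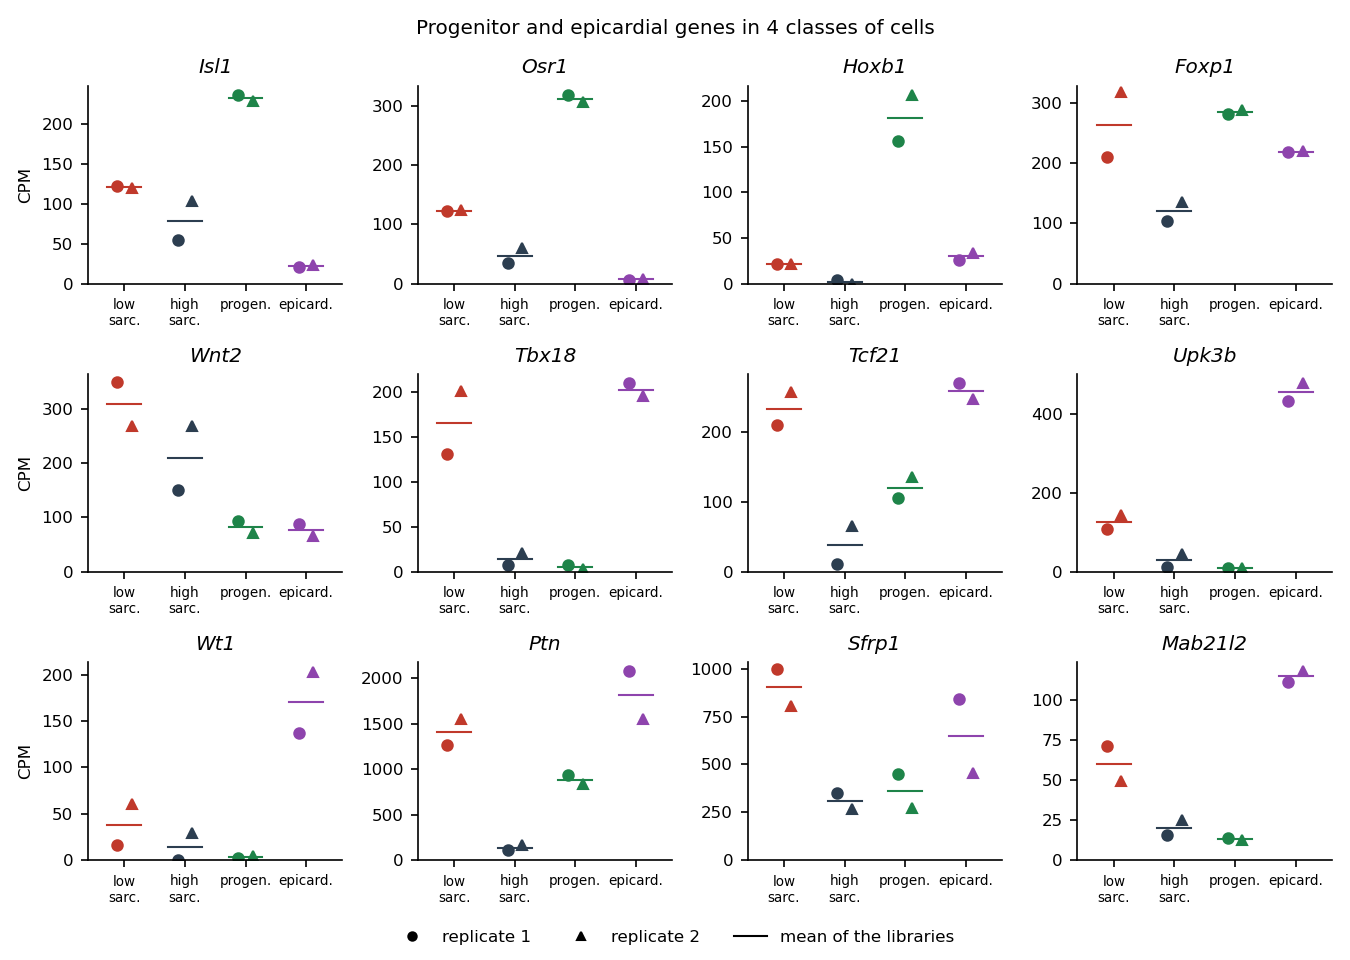
CPM per replicate (points) and their mean (line) of Isl1, Osr1, Hoxb1, Foxp1, Wnt2, Tbx18, Tcf21, Upk3b, Wt1, Ptn, Sfrp1 and Mab21l2 in low-sarcomere, high-sarcomere, progenitor-marked and epicardial-marked cells. Osr1 and Isl1 of low-sarcomere cells lie between high-sarcomere and progenitor-marked cells, Tbx18 and Ptn lie nearer to epicardial-marked than to high-sarcomere cells, and Wnt2 and Sfrp1 lie above progenitor-marked cells.

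The comparison with progenitor-marked cells shares the low-sarcomere sums with the one above, so its values are given beside them and not as separate support. Low-sarcomere cells had more RNA of contraction, of inflow and epicardial genes and of Wnt2, and less of posterior SHF and replication genes. The direction of the contraction and posterior SHF genes follows at least in part from how both classes were chosen. Of 8671 genes tested, 698 were higher (8.05%) and 464 lower (5.35%), and 452 and 189 of them by over 2-fold. Isl1, Osr1, Foxf1 and Hoxb1 chose the progenitor-marked cells and were not tested. Progenitor-marked cells were deeper, with medians of 3510 and 2623 UMIs, against 1228 and 1273 in low-sarcomere cells. With cells thinned to 800 UMIs the 464 lower calls became 80, over fewer genes tested. The S phase and heterochronic counts against this class are given at full depth only.

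Sarcomere genes outside the rule were higher in 18 of 25 and lower in 0 (median log2 difference 3.63), again fixed by the choice. Ankrd1, a stretch-responsive repeat protein of heart muscle, had 437 and 293 CPM in low-sarcomere cells, against 5.62 and 5.72 in progenitor-marked cells (log2 difference 6.03 ± 0.27, edgeR adjusted p = 5.5e-18), and 2452 and 2397 in high-sarcomere cells. Nkx2-5 had a log2 difference of 1.95 ± 0.29 over progenitor-marked cells, which had 21.9 and 43.5 CPM (edgeR adjusted p = 7.7e-06), with 2.74 in replicate 1 and 1.10 in replicate 2. Mef2c had 61.3 and 75.5 CPM in progenitor-marked cells (log2 difference 2.25), and Tbx20 had 17.4 and 10.3 (2.84). Of 18 cardiac factors 11 were higher and 2 lower, namely Tbx3 and Irx3. Nkx2-5 and Mef2c were both higher than in progenitor-marked and lower than in high-sarcomere cells, with Mef2c 0.52 below the high-sarcomere level on the log2 scale.

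Smooth muscle genes were higher in 6 of 6 and inflow genes in 8 of 12. For smooth muscle genes, and for heart muscle genes of the inflow list, the higher direction follows in part from the choice of cells by sarcomere RNA. Acta2 had 21.9 and 98.3 CPM in progenitor-marked cells (log2 difference 4.54 ± 0.20, edgeR adjusted p = 5.5e-18), with 5.84 in replicate 1 and 3.90 in replicate 2. Shox2 had 21.9 and 18.3 CPM there (log2 difference 4.33), and Hcn4 had 7.31 and 2.86 (4.43, and 5.05 in replicate 2 alone). Epicardial genes were higher in 9 of 12, led by Tbx18 with 7.31 and 2.86 CPM in progenitor-marked cells (log2 difference 5.00 ± 0.34, with 4.18 in replicate 1 and 6.12 in replicate 2). That progenitor-marked cells had fewer epicardial than progenitor UMIs is part of their choice, so this count is a description for the 5 genes concerned. Muscle energy genes were higher in 9 of 14 (median log2 difference 0.87), again in part by the choice of cells by sarcomere RNA.

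Outside the lists, 12 genes were named for the largest differences over progenitor-marked cells, of which Ankrd1, Corin and Rarres2 are given above. Unc45b, a myosin chaperone, had 273 and 187 CPM in low-sarcomere cells, against 9.56 and 16.0 in progenitor-marked cells (log2 difference 4.21, with 4.85 in replicate 1 and 3.56 in replicate 2). Dsc2, a desmosomal cadherin, had 46.4 and 91.7 CPM, against 3.93 and 2.86 (log2 difference 4.29, with 3.56 in replicate 1 and 4.99 in replicate 2). Rbm24, an RNA-binding regulator of sarcomere splicing, had 117.5 and 119.9 CPM, against 6.18 and 9.15 (log2 difference 3.97). Pnmt, the enzyme that makes adrenaline, had 30.1 and 88.2 CPM, against 1 and 0 UMIs in progenitor-marked cells (ratio 196, exact interval 32.9 to 7936). It had 15.5 and 69.0 CPM in high-sarcomere cells, near the low-sarcomere level. Against high-sarcomere cells Unc45b and Rbm24 were lower (log2 differences -1.08 and -0.76), and Dsc2 did not pass the test (0.54, edgeR adjusted p = 0.50).

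Of 16 SHF genes that did not choose the class, 9 were lower than in progenitor-marked cells and 1 was higher (median log2 difference -1.89, or -1.19 with genes at 0 UMIs set at their bound). Several of the 9, such as Aldh1a2, Barx1, Hoxa5 and Nkx6-1, were top genes of SHF progenitor-like clusters, as were Osr1 and Foxf1. Their lower direction thus follows in part from the choice of progenitor-marked cells, and the count is a description. Aldh1a2 had a log2 difference of -2.47 ± 0.35 (edgeR adjusted p = 2.5e-06). Meis2, a TALE homeobox factor, had 145 and 233 CPM in low-sarcomere cells, against 336 and 333 in progenitor-marked cells. The higher gene was Wnt2, a Wnt ligand of the inflow and lung-side mesoderm, with 349.7 and 268 CPM, against 93.9 and 70.9 in progenitor-marked and 151 and 268 in high-sarcomere cells (log2 difference 1.94 ± 0.20 over progenitor-marked cells, edgeR adjusted p = 3.7e-09). Wnt2 went with the low- and high-sarcomere cells rather than with the other SHF genes. Among genes outside the lists, the chemokine Cxcl13 had 3 and 0 UMIs in low-sarcomere cells, against 154 and 113 CPM in progenitor-marked cells (ratio of progenitor-marked over low-sarcomere 29.0, exact interval 9.85 to 141). The arginase gene Arg1 had 24.6 and 35.3 CPM, against 348 and 449.96 (log2 difference -3.72), and the matrix gene Sparcl1 had 8.20 and 24.7, against 233 and 125 (-3.52, with -4.79 in replicate 1 and -2.31 in replicate 2).

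Against epicardial-marked cells, which again share the low-sarcomere sums, fewer genes were called. Low-sarcomere cells had more RNA of 15 of 25 sarcomere genes and of 8 of 18 cardiac factors, among them Nkx2-5, Mef2c and Tbx20, with 2 factors lower (Hand1 and Irx3) and 8 not passing. They had less of 8 of 18 matrix genes. Of 8670 genes tested, 195 were higher (2.25%) and 138 lower (1.59%), and 155 and 74 of them by over 2-fold. Wt1, Tbx18, Upk3b, Upk1b and Lrrn4 chose the epicardial-marked cells and were not tested. The sarcomere genes had a median log2 difference of 3.19 (2.61 with 3 genes at their bound), a direction again fixed by the choice of cells. Calcium handling genes were higher in 10 of 15 and smooth muscle genes in 5 of 6, which follows in part from the same choice.

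Nkx2-5 had 8.19 and 2.36 CPM in epicardial-marked cells (log2 difference of low-sarcomere over these 4.37 ± 0.52, edgeR adjusted p = 3.0e-07, with 5.25 in replicate 2 alone). Myocd, a coactivator of smooth and cardiac muscle genes, had 104 and 102 CPM in low-sarcomere cells, against 4.92 and 2.36 in epicardial-marked cells. Fbxo32, a muscle ubiquitin ligase adaptor, had 197 and 145 CPM, against 1 UMI in each epicardial-marked library (ratio 89.9, exact interval 24.3 to 751). Isl1 had 21.3 and 23.6 CPM and Osr1 6.55 and 7.09 CPM in epicardial-marked cells, both below their levels in low-sarcomere cells. That epicardial-marked cells had fewer progenitor than epicardial UMIs is part of their choice, so these levels are a description. Wnt2, which did not choose them, was higher in low-sarcomere cells (88.5 and 66.2 CPM in epicardial-marked cells, log2 difference 1.998 ± 0.24, edgeR adjusted p = 3.5e-07).

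Of 7 epicardial genes that did not choose the class, 2 were lower in low-sarcomere cells, Sema3d and Podxl, and 0 were higher. Tcf21 had 270.4 and 248 CPM in epicardial-marked cells and did not pass the test (log2 difference -0.17 ± 0.20, edgeR adjusted p = 0.75). Lhx9, a LIM homeobox gene of proepicardium and coelomic lining, had 35.5 and 52.9 CPM in low-sarcomere cells, against 175 and 210.5 in epicardial-marked cells (log2 difference -2.15 ± 0.36, edgeR adjusted p = 1.2e-04) and 0 UMIs in high-sarcomere cells (at least 5.10-fold higher in low-sarcomere cells). Of 12 growth and imprinted genes, 4 were lower in low-sarcomere cells (Dlk1, Meg3, Peg3 and Mest), 2 were higher (Igf2 and H19) and 6 did not pass. Mest had 2028 and 2516 CPM in epicardial-marked cells (log2 difference -1.10). Matrix genes were lower in 8 of 18 and higher in 1, with Col3a1, a fibrillar collagen, at 115 and 191 CPM in low-sarcomere cells, against 252 and 393 in epicardial-marked cells (log2 difference -1.07).

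The same matrix genes were higher than in high-sarcomere cells in 7 of 18 tested, with 0 lower (median log2 difference 1.41, or 1.32 without the gene whose UMIs were too few for a fold in both classes). Col1a1, the main fibrillar collagen chain, had 98.4 and 166 CPM in low-sarcomere cells, against 3.87 and 32.6 in high-sarcomere cells (log2 difference 2.44 ± 0.40, edgeR adjusted p = 4.5e-05, and 4.45 in replicate 1 alone). Vim (vimentin, an intermediate filament of mesenchyme) had 852 and 861 CPM, against 414 and 506 in high-sarcomere and 399 and 477 in progenitor-marked cells (log2 differences 0.68 and 0.99). The alternative of members in the cardiomyocyte-like cluster only left 4 of 19 matrix genes higher than in high-sarcomere cells.

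Of 22 G2 and M phase genes 8 were higher than in high-sarcomere cells and 0 lower (median log2 difference 0.45), and against progenitor-marked cells 0 were higher, 1 was lower and 21 did not pass (-0.24). Top2a, the topoisomerase of dividing cells, had 891 and 596 CPM in low-sarcomere cells, against 507 and 291 in high-sarcomere and 1017 and 695 in progenitor-marked cells (log2 differences 0.72 and -0.20, edgeR adjusted p = 4.2e-04 and 0.28). Of 20 S phase genes 3 were higher than in high-sarcomere cells (Tyms, Cdca7 and Slbp) and 17 did not pass, and 13 were lower than in progenitor-marked cells (median log2 difference -0.63). Cdca7 had 189 and 116 CPM in low-sarcomere cells, against 77.3 and 51.7 in high-sarcomere and 314 and 207 in progenitor-marked cells. None of these calls over high-sarcomere cells held with cells thinned to 800 UMIs, and without cells over 10000 UMIs 1 S phase and 4 G2 and M phase genes were higher.

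The series concerns Hedgehog signalling and heterochronic genes, which time development, and both lists were read in low-sarcomere cells. The 5 Hedgehog targets did not pass the test against high-sarcomere cells (median log2 difference 1.12). Against progenitor-marked cells 3 of 4 were lower, Gli1, Ptch1 and Hhip, the pathway's own feedback genes. Gli1 had 8.20 and 10.6 CPM in low-sarcomere cells, against 3.87 and 3.83 in high-sarcomere and 30.4 and 35.4 in progenitor-marked cells (log2 difference -1.79 over progenitor-marked cells, edgeR adjusted p = 0.023, and 0.11 with DESeq2). Of 8 heterochronic genes 6 were lower than in progenitor-marked cells and 0 higher. Hmga2, a chromatin protein of embryonic growth that let-7 microRNAs repress, had 484 and 479.8 CPM in low-sarcomere cells, against 232 and 174 in high-sarcomere and 769.5 and 604 in progenitor-marked cells (log2 differences 1.06 ± 0.16 and -0.50 ± 0.11, edgeR adjusted p = 6.3e-06 and 0.0021). Mycn, a Myc factor of growing progenitors, had 10.9 and 49.4 CPM, against 65.7 and 74.7 in high-sarcomere and 129.8 and 157 in progenitor-marked cells, so it was below both (log2 differences -1.43 and -2.32, with -2.77 and -3.54 in replicate 1 alone and -0.78 and -1.64 in replicate 2 alone). Its call against high-sarcomere cells was lost in 6 alternatives, among them without cells over 10000 UMIs (-1.02, edgeR adjusted p = 0.23). Lin28b, an RNA-binding inhibitor of let-7, had 27.3 and 42.3 CPM, against 7.73 and 15.3 in high-sarcomere and 121 and 78.9 in progenitor-marked cells (log2 difference -1.55 over progenitor-marked cells, and -0.87 in replicate 2 alone). Hmga2 thus lay between the 2 classes in both replicates.

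Of 6 immediate-early and stress genes tested 1 was higher than in high-sarcomere cells. Jun had 265 and 201 CPM in low-sarcomere cells, against 96.7 and 70.9 in high-sarcomere cells (log2 difference 1.18, edgeR adjusted p = 7.4e-04), and with cells thinned to 800 UMIs the difference was 0.04 (adjusted p = 0.99). Fos, Ier2 and Atf3 did not pass the test. Mitochondrial RNA had medians of 1.29% and 1.12% of UMIs in low-sarcomere cells, against 1.22% and 1.15% in high-sarcomere cells.

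Finer bins of the rule-gene share, given as a description, show how genes ran from sarcomere-poor to sarcomere-rich cells. Ptn in replicate 1 had 1124 CPM at a share of 0, 1458 above 0 to 0.5%, 1481 from 0.5% to 1%, 1102 from 1% to 2%, 184 from 2% to 5% and 67.5 from 5% to 10%. In replicate 2 it had 788, 1064, 1815, 1262, 383 and 47.2 CPM over the same bins. Ptn was lower in each bin above 2% than in both low-sarcomere bins in both replicates. Across 0.5% the bins were close in replicate 1, while in replicate 2 the low-sarcomere bin was the higher. Tbx18 had its highest bins among low-sarcomere cells, with 133 and 129 CPM in replicate 1 and 215 and 186 in replicate 2 from 0.5% to 1% and from 1% to 2%, against 22.9 and 57.0 from 2% to 5% and 44.9 and 21.9 above 0 to 0.5%.

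Sarcomere genes outside the rule differed in the bin from which they were high. Myl3 had 19.1 and 19.2 CPM in replicate 1 and 33.6 and 89.1 in replicate 2 in the low-sarcomere bins from 0.5% to 1% and from 1% to 2%. It then had 539 and 689 CPM from 2% to 5%, and 3531 and 2505 from 5% to 10%. Ttn had 95.3 and 326 CPM in replicate 1 and 108 and 319 in replicate 2 in the low-sarcomere bins, so it was about 3 times as high in the upper of them. Mef2c was at 343 and 374 CPM in replicate 1 and 195 and 356 in replicate 2 in these bins, against 424 and 502 from 2% to 5% and 78.6 and 67.6 above 0 to 0.5%. Nkx2-5 had 69.9 and 201 CPM in replicate 1 and 100.8 and 81.7 in replicate 2 in the low-sarcomere bins, against 551 and 430 from 2% to 5%. From 1% to 2%, Mef2c was closer to its level from 2% to 5% than Nkx2-5 or Myl3 was in both replicates, and in replicate 2 it was well below that level from 0.5% to 1%. The bins share the libraries and their depth, each low-sarcomere bin holds 50 to 61 cells, and the bin of 10% and more holds 4 and 13 cells and is not read.

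**Figure D5:**
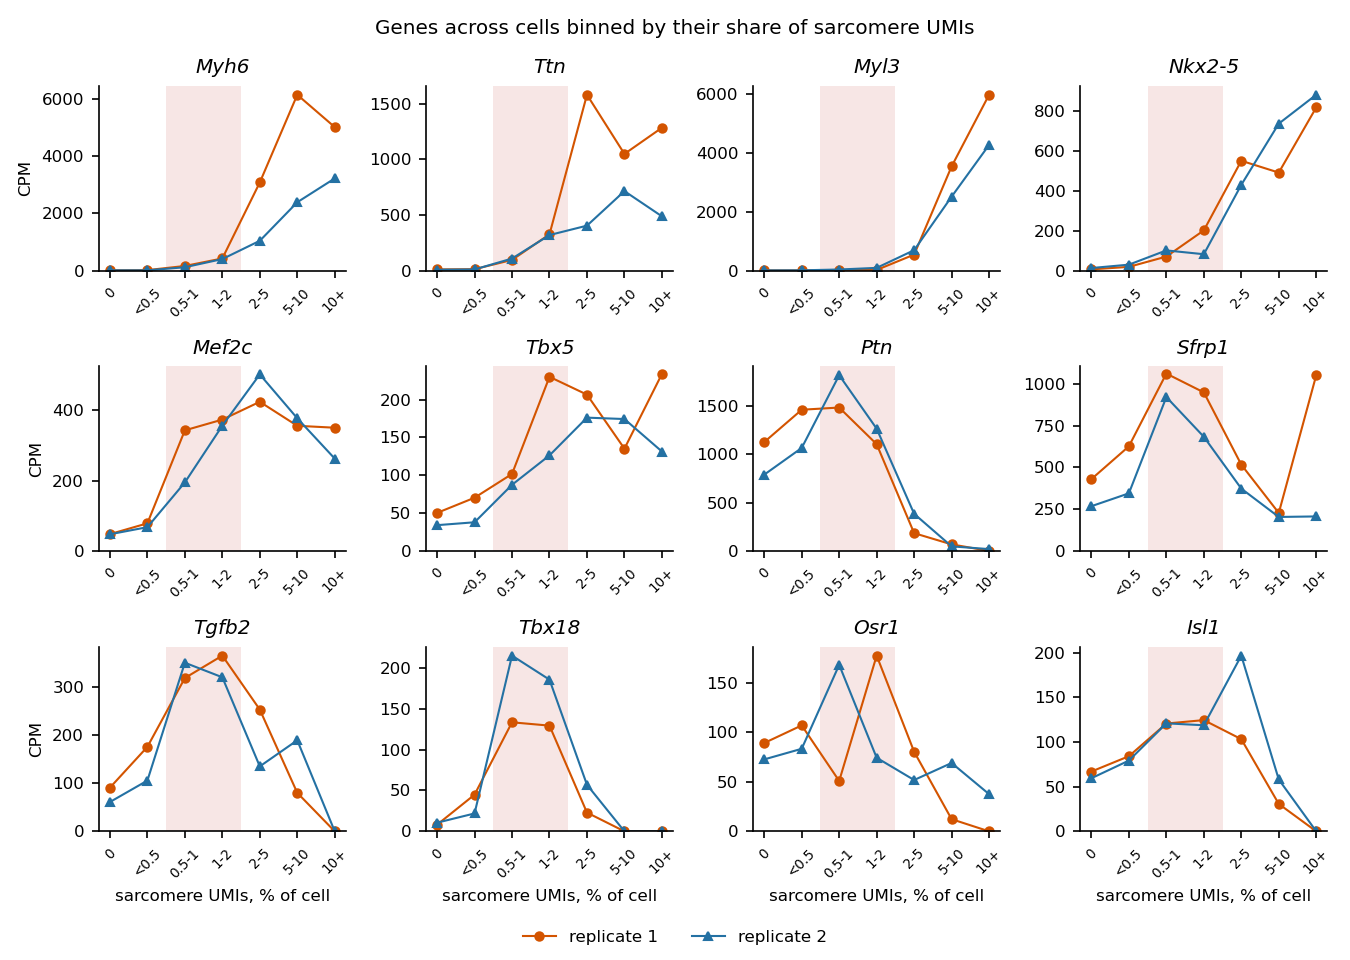
CPM of Myh6, Ttn, Myl3, Nkx2-5, Mef2c, Tbx5, Ptn, Sfrp1, Tgfb2, Tbx18, Osr1 and Isl1 over 7 bins of the rule-gene share (percent of UMIs, low to high), 1 line per replicate, with the low-sarcomere bins shaded. Ptn and Tbx18 are lower in every bin to the right of the shaded ones, and Myl3 is higher in every one. Sfrp1 and Tgfb2 are lower from 2% to 10%, and Sfrp1 of replicate 1 is at 1052 CPM in the last bin, which holds 4 cells.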

How the data were processed

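Drop-seq UMI counts were deposited as 2 gene by barcode tables, and per the submitters' processing notes mm10 and Scanpy were used; for the aligner, the counting tool and the annotation release, names were not given in the sources used here. Counts are not length-scaled, since each UMI marks a 3' end, and strand handling is not stated, so overlapping genes are uncertain. Cells needed 400 genes and at most 10% mitochondrial UMIs. Python 3.11.15 and scanpy 1.11.5 with leidenalg 0.10.2 were used for filtering and clustering (2000 variable genes, 30 components, 20 neighbours, resolution 1, rule genes left out). Raw counts were summed per class and library, giving 10 sums with 4 residual degrees of freedom, and tested in R 4.3.3 with edgeR 4.0.16 (TMM factors, quasi-likelihood F test, library as a block, Benjamini-Hochberg adjustment over all genes tested). Same-library sums deviated together (correlation 0.353 to 0.817 over 3988 genes), and a library is the shared pool of embryos, which is why it is a block.

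A gene was called at an adjusted p under 0.05. DESeq2 1.42.0, library sizes without TMM, no filter on low counts, no replicate block, doublet-score, depth and marker exclusions and cells thinned to 800 UMIs were alternatives. Leaving out cells over 10000 UMIs, and keeping members of the cardiomyocyte-like cluster only, were added after seeing the data. Scripts were tested on simulated data.

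The members, the gene lists and the rule for named genes were chosen with earlier results of these data known. The rule took the 12 largest differences in each direction against high-sarcomere and progenitor-marked cells, 6 against epicardial-marked cells and 12 higher than both the high-sarcomere and progenitor-marked classes, at 50 CPM or more and in the same direction in both libraries, the 4 smallest p per list, the SHF and epicardial members at 20 CPM or more, and Actc1, Tnnt2, Myl7, Ptn and Sfrp1. Other list members, such as Ttn, Mef2c, Tbx5, Shox2, Hcn4 and Gja1, were named after their values were seen. Values of some list members are not reported here; they remain in the counts and medians of their lists.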

Additional observations from a re-analysis of the deposited data

How the results depend on the processing

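Against high-sarcomere cells 279 genes were higher and 537 lower. Higher calls numbered 154 with DESeq2, 621 without TMM factors, 56 with no replicate block, 32 with cells thinned to 800 UMIs, 127 with members from 1% to under 2% and 155 without cells over 10000 UMIs, and lower calls 225 with no replicate block, 143 thinned and 348 from 1% to under 2%. Against progenitor-marked cells the 698 higher calls became 273 with no replicate block and 151 thinned, and the 464 lower calls 206 with DESeq2, 46 with no replicate block, 80 thinned, 300 without cells carrying markers of other types and 269 without cells over 10000 UMIs. Against epicardial-marked cells the 195 higher calls became 71 with no replicate block and 45 thinned, and the 138 lower calls 69 with DESeq2, 2 with no replicate block, 9 thinned and 88 without cells over 10000 UMIs. Thinning left 2795 genes to test, and other causes were not tested. The share of low-sarcomere cells was 1.20% with members from 1% to under 2%, and 2.19% to 2.90% without either replicate. Lhx9 over progenitor-marked cells reversed to -0.35 in cardiomyocyte-like members, and Nefm to 0.51 without cells carrying markers of other types; the cause was not tested. Of 233 called differences of named genes, 86 missed the threshold with no replicate block and 34 with DESeq2. Thinning and leaving out cells over 10000 UMIs also took some named genes out of the test. Among those still tested, 77 called differences missed the threshold thinned and 40 without cells over 10000 UMIs. Called differences of genes no longer tested are not in these 2 counts. The median depth of 1228 and 1273 UMIs limits what a single member shows.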
